A study of Mus musculus with 36 samples.

Results

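Blood was compared between 6 mice exposed to 3 Gy of x-rays and 6 unirradiated controls, all sampled 7 days after exposure, on 12 of the 36 arrays of the series. The arrays were chosen by their titles alone, 6 of 6 x-ray arrays and 6 of 6 control arrays, so that no measured value entered the choice. The mice were male C57BL/6J, an inbred strain, 8 to 10 weeks old. Controls were sham-irradiated, and the x-ray mice received x-rays without a neutron component. Each array held RNA from the blood of 1 mouse, drawn from the heart by puncture into an RNA-stabilizing reagent and depleted of globin transcripts before hybridization, and the p-values therefore measure the spread between mice. The other 24 arrays held blood of mice exposed to mixed fields of x-rays and neutrons or to neutrons alone, and 12 of them (3 Gy with 5% neutrons, and 0.75 Gy of neutrons alone) enter the last comparisons below. The paper states that its neutron source also gives a small share of photons. Neutrons alone therefore means that source without added x-rays.

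Ionizing radiation breaks DNA, and cells answer through the kinases ATM and ATR and the transcription factor p53, which stops the cell cycle or starts apoptosis. Lymphocytes, and B cells above all, die readily after irradiation, whereas mature granulocytes and red cells do not divide and are lost as they age. The marrow replaces them from surviving stem and progenitor cells, and young red cells (reticulocytes) and young neutrophils that enter the blood still carry transcripts of the late stages of their formation. Whole blood RNA is a mixture of all of these cells, so fewer cells of a type and less RNA per cell cannot be told apart in any of the values that follow.

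The arrays were 1-colour Agilent arrays, on which each probe gives a fluorescence intensity. A level below is the log2 intensity of a gene's probe minus the median of all probes on that array, so that 0 is the array's median probe and a difference of 1 is a doubling. Between 19492 and 20724 probes were well above background on the control arrays and between 16548 and 19307 on the x-ray arrays, and the groups did not overlap (exact permutation test, two-sided, p = 0.00216, the smallest that 6 arrays against 6 allow). The median log2 intensity before scaling was 4.50 ± 0.14 (SD, n = 6) in the controls and 3.76 ± 0.47 (SD, n = 6) after x-rays, and the spike-in probes, which carry the same added RNA on every array, averaged 11.9 and 12.2 (exact permutation test, two-sided, p = 0.128). The x-ray arrays were thus dimmer, and how much of any difference below comes with that was not tested. It sets where the zero lies: over all genes the log2 fold-changes had a median of -0.11 with the scaling used here, 0.44 after scaling on the 75th percentile and -1.22 after centring on the spike-ins, so changes are best read against that median. The number of arrays limits the precision of each value. Of both groups, 5 arrays were scanned in 1 session and 1 array in another, and of the 4 slides, 1 held controls only and 1 x-ray arrays only.

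Blood 7 days after 3 Gy x-rays differed from control blood in 4500 of the 15085 genes tested (29.8%; limma, p under 0.001 and a false discovery rate under 5%). Of these, 1948 were upregulated (12.9% of the genes tested) and 2552 were downregulated (16.9%). Both shares are the background for the counts of calls in the gene lists below. An adjusted p under 0.05 alone was reached by 58.9% of the genes. The median absolute log2 fold-change of the differentially expressed genes was 1.47, and 901 of them changed at least 4-fold, 440 up and 461 down. In 3962 of the 4500 genes no x-ray array overlapped a control array, as was the case for 31.6% of all genes tested. Downregulated genes made up 56.7% of the total, a share that depended on the scaling (37.4% on the 75th percentile, 54.4% after quantile normalization, 95.8% on the spike-ins).

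**Figure D1:**
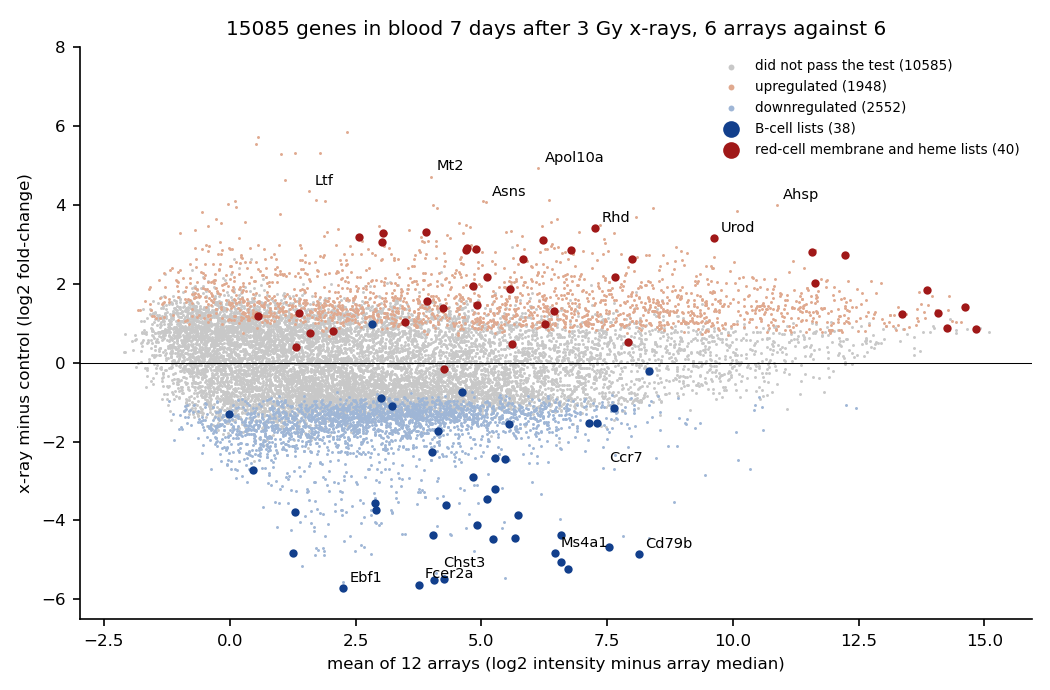
Log2 fold-change of each of the 15085 genes (x-ray minus control, vertical) against its mean level (log2 intensity relative to the array median, horizontal), with the 1948 upregulated and 2552 downregulated genes coloured. The falls of Ebf1 and Fcer2a lie below -5, and the rise of Apol10a lies close to 5.

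The arrays of the smaller scan session, 1 control and 1 x-ray mouse, allowed a look at mice that had no part in a fit. With the other session's 5 mice per group alone, 3200 genes were differentially expressed (21.2% of the genes tested), and 3168 of them differed in the same direction in the held-out pair, as did 84.3% of all genes. The upregulated genes had a median log2 fold-change of 1.57 in the 5 mice per group and of 1.71 in the held-out pair. For the downregulated genes the medians were -1.67 and -1.35. Across these genes, which are not independent replicates, Pearson's r between the 2 sets of values was 0.956.

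**Figure D2:**
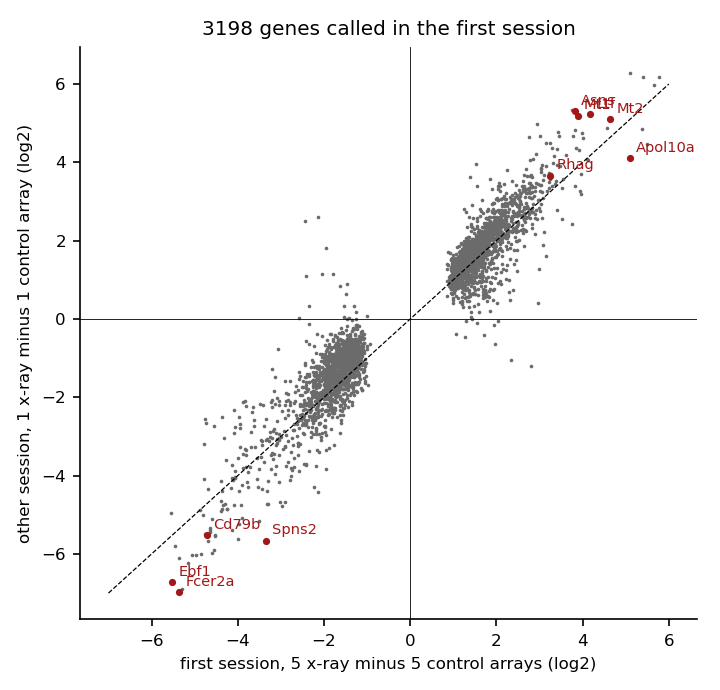
Log2 fold-change in the 5 mice per group of the larger scan session (horizontal) against the difference between the 1 x-ray and the 1 control mouse of the other session (vertical), for genes differentially expressed in the former. Nearly all points lie in the lower left and upper right quadrants, on the side of the 3168 genes that kept their direction.

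Transcripts of B cells, the antibody-forming lymphocytes, were lower after x-rays. Of the 17 measured genes of the B-cell receptor and its co-receptors, 14 were downregulated and none upregulated (median log2 fold-change -2.45), and of 21 genes of B-cell transcription factors and survival receptors 18 were downregulated and none upregulated (median -3.85). In each of these calls the groups did not overlap. Cd79b, one of the 2 signalling chains of the B-cell receptor, lay at 10.09 to 10.93 in the controls (median 10.63) and at 4.33 to 8.24 after x-rays (median 5.45). No x-ray mouse reached the lowest control, although the highest x-ray mouse stood well apart from the x-ray median (log2 fold-change -4.86 ± 0.52 SE, 29.0-fold, adjusted p = 1.19e-05). The other chain, Cd79a, lay between 8.49 and 9.90 (median 9.08) in the controls and between 2.53 and 6.51 (median 3.86) after x-rays, again without overlap (log2 fold-change -5.05 ± 0.53 SE, 33.1-fold, adjusted p = 9.98e-06), and a second, dimmer probe for it gave a log2 fold-change of -4.32. The array annotation places the brighter Cd79a probe on another chromosome than the gene and leaves the dimmer one unplaced.

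Ms4a1 encodes CD20, a surface protein of mature B cells. Its level was at 8.55 to 9.15 in the controls (median 8.90) and at 2.45 to 7.23 after x-rays (median 3.58) (log2 fold-change -4.83 ± 0.64 SE, 28.4-fold, adjusted p = 5.81e-05). Blnk, the adaptor below the receptor, fell by 4.38 on the log2 scale, and in both of these genes every x-ray mouse was below every control. In the same list, the kinases Syk and Btk, which other blood cells also express, had log2 fold-changes of -1.52 and -1.55, and Cd81, a co-receptor found on many cell types, did not pass the test (-0.22, adjusted p = 0.399).

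Ebf1, the transcription factor that commits progenitors to the B lineage, was between 4.69 and 5.61 (median 5.18) in the controls and between -1.57 and 2.25 (median -1.33) after x-rays. It was well above background on all control arrays but on only 1 of 6 x-ray arrays, so that its fold-change rests mostly on x-ray values near background (log2 fold-change -5.72 ± 0.56 SE, adjusted p = 5.69e-06). Fcer2a, the low-affinity IgE receptor CD23 of mature B cells, was at 6.02 to 7.12 in the controls (median 6.49) and at 0.07 to 1.78 after x-rays (median 1.03), and was above background on 3 x-ray arrays (log2 fold-change -5.63 ± 0.32 SE, adjusted p = 1.93e-07). Neither gene showed any overlap. Tnfrsf13c, the receptor for the survival factor BAFF, had a log2 fold-change of -5.51 with 4 x-ray arrays above background, and Fcrla one of -5.48, also with 4.

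Fcmr, the receptor for IgM, was above background on all 12 arrays and lay between 8.83 and 9.83 (median 9.36) in the controls and between 3.13 and 5.64 (median 4.11) after x-rays (log2 fold-change -5.23 ± 0.39 SE, 37.4-fold, adjusted p = 9.19e-07). Pax5, which keeps B cells in their lineage, had a log2 fold-change of -2.72. Ly6d, a surface marker that appears early in the lineage, had one of -4.68. For Fcrl1, a receptor of mature B cells, no x-ray array rose above background, so that its transcript was at least 11.7-fold lower than in the controls, where 6 of 6 arrays measured it.

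**Figure D3:**
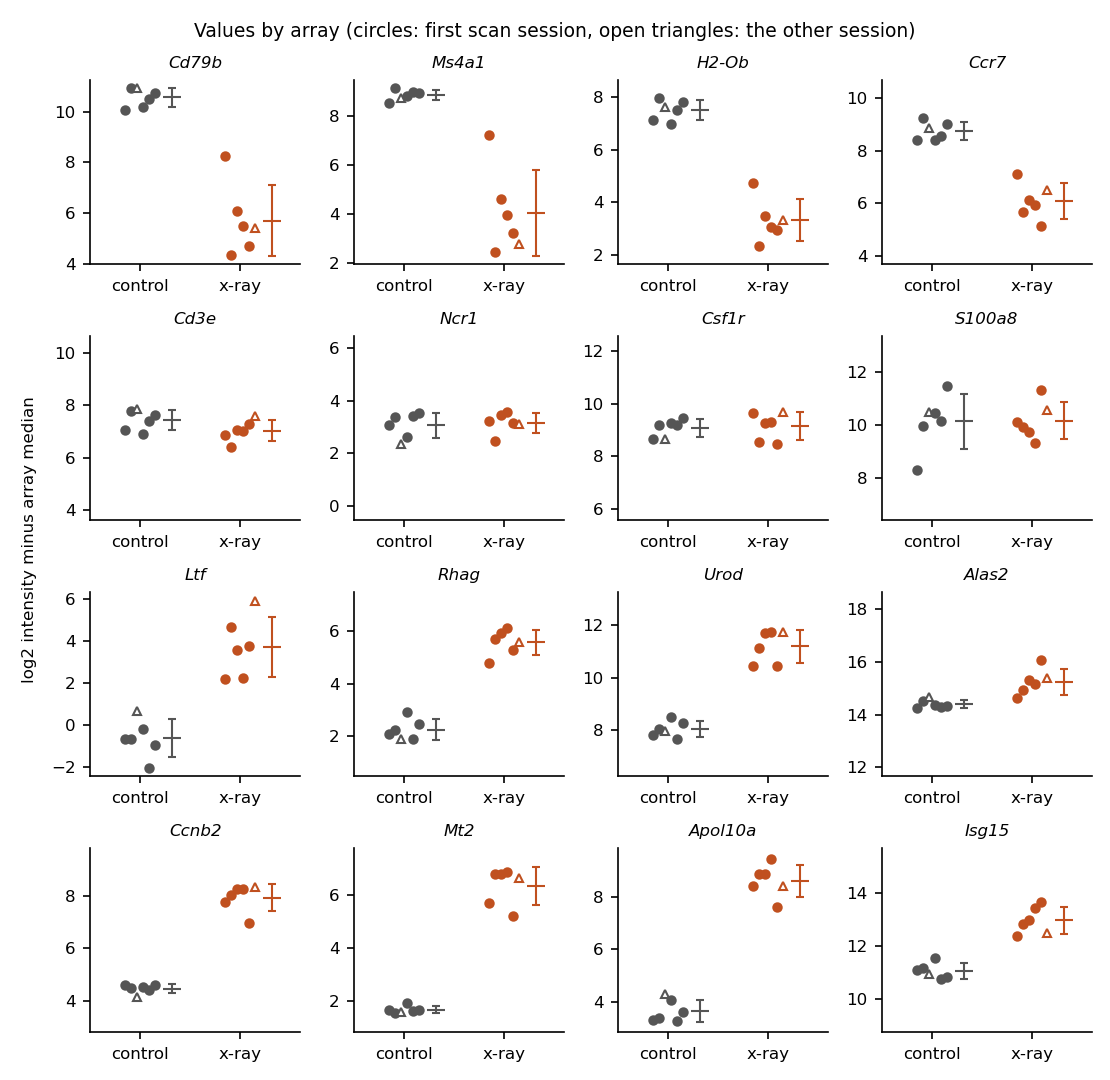
Level of genes in each of the 6 control and 6 x-ray mice (log2 intensity relative to the array median, vertical), 1 point per mouse with a bar at the group mean. B-cell and MHC class II genes lie lower in every x-ray mouse, the red-cell, mitotic and metallothionein genes lie higher, and Cd3e, S100a8 and Alas2 overlap.

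MHC class II molecules, which display peptides to helper T cells and are carried in blood by B cells, monocytes and dendritic cells, followed. All 11 members were tested and all 11 were downregulated with no overlap (median log2 fold-change -2.71). The classical chain H2-Aa was at 8.59 to 9.28 in the controls (median 9.02) and at 4.38 to 7.27 after x-rays (median 6.81) (log2 fold-change -2.71 ± 0.42 SE, 6.52-fold, adjusted p = 2.05e-04). Its partner H2-Ab1, the class II chain H2-Eb1 and the invariant chain Cd74 had log2 fold-changes of -2.46, -2.68 and -2.85. Monocytes and dendritic cells also carry these genes. The log2 fold-changes of both chains of H2-O, which modulates peptide loading, lay below -4.

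H2-Ob was between 6.99 and 7.97 (median 7.58) in the controls and between 2.34 and 4.74 (median 3.20) after x-rays (log2 fold-change -4.19 ± 0.34 SE, 18.2-fold, adjusted p = 1.79e-06), and H2-Oa, the other chain of H2-O, fell by 4.04 on the log2 scale. H2-DMb2, of the loading catalyst H2-DM, fell by 4.85 and was above background on 2 x-ray arrays. No x-ray array was above background for H2-Eb2, whose level was at least 11.5-fold lower, with 6 control arrays measuring it. Ciita, the transactivator of class II genes, was at least 3.71-fold lower by a probe above background on no x-ray array (log2 fold-change -1.99). Another probe, above background on 1 x-ray array, gave -2.01. With the slide as a block, 5 class II genes, 9 genes of the B-cell receptor list and 15 of the B-cell transcription factors and survival receptors were downregulated.

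Class II promoters carry a CCAAT box near the start site, read by the factor NF-Y. Searched on both strands, the letters CCAAT occurred in the 200 bases before the start of 8 of the 8 class II genes with a promoter entry, against 29.3% of all 32851 such windows in mouse RefSeq (GRCm38.p6). The windows of H2-Ob (chr17:34238705-34238904, plus strand) and H2-Aa (chr17:34287824-34288023, minus strand) are shown because they belong to the class II genes with values above, 5′ to 3′ towards the start site, with CCAAT or its reverse complement in capitals. The match is a description of the letters. Here and below a gene counted when any of its windows matched, whereas the share over all is per window.
H2-Ob: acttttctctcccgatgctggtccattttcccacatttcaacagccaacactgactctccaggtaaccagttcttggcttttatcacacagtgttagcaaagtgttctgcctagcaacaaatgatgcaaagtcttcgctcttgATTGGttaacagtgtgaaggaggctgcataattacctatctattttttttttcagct
H2-Aa: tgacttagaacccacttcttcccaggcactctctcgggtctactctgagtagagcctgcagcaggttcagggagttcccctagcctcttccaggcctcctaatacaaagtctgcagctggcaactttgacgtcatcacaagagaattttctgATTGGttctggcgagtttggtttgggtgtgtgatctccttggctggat

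T-cell transcripts were lower in part. Among 20 tested genes of the T-cell receptor complex and its signalling 5 were downregulated and none upregulated (median log2 fold-change -0.82), beside 16.9% downregulated of all genes. Among 14 genes of naive T-cell identity and homing 10 were downregulated and none upregulated (median -1.48). Cd8a, the co-receptor of cytotoxic T cells, was at 3.13 to 4.26 in the controls (median 3.93) and at 1.49 to 2.58 after x-rays (median 1.95) (log2 fold-change -1.82 ± 0.25 SE, 3.53-fold, adjusted p = 7.39e-05). Cd2, an adhesion receptor of T cells, had a log2 fold-change of -1.76. By contrast Cd3e, a chain of the receptor complex itself, was between 6.92 and 7.85 (median 7.50) in the controls and between 6.40 and 7.59 (median 7.02) after x-rays and did not pass the test (log2 difference -0.41, adjusted p = 0.161), and neither did Cd4, the co-receptor of helper T cells (log2 difference 0.66, adjusted p = 0.0418).

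Among the homing genes, Ccr7, the chemokine receptor that brings naive T cells and B cells into lymph nodes, was at 8.40 to 9.24 in the controls (median 8.72) and at 5.14 to 7.11 after x-rays (median 6.05) (log2 fold-change -2.67 ± 0.30 SE, 6.35-fold, adjusted p = 1.68e-05). S1pr1, the receptor through which lymphocytes leave lymph nodes, was between 5.19 and 6.06 (median 5.60) in the controls and between 2.55 and 4.87 (median 3.14) after x-rays (log2 fold-change -2.26 ± 0.35 SE, 4.79-fold, adjusted p = 2.04e-04). In neither gene did the groups overlap. Satb1, Dgka and Lef1 had log2 fold-changes of -1.81, -1.76 and -1.72, and several of these genes, Ccr7 and S1pr1 among them, are also expressed by B cells. With the slide as a block, 1 gene of the receptor list and 4 of the naive list were downregulated.

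Natural killer cells and cytotoxic effectors gave no call. None of the 19 tested genes was differentially expressed by limma, and their median log2 fold-change was 0.17, a median that turned negative when arrays were centred on the spike-ins or corrected by normexp. Ncr1, the receptor NKp46 that defines the cells, was at 2.34 to 3.52 in the controls (median 3.22) and at 2.47 to 3.57 after x-rays (median 3.18), and the 2 groups overlapped (log2 difference 0.11, adjusted p = 0.740).

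Mature myeloid genes mostly overlapped between the groups. Of 17 tested genes of mature neutrophil receptors and S100 proteins only Itgam, an integrin chain, was upregulated (log2 fold-change 1.28 ± 0.28 SE, adjusted p = 0.00180), a call that held in 6 of the 12 fits with 1 array left out. S100a8, an abundant calcium-binding protein of neutrophils, was between 8.28 and 11.49 (median 10.31) in the controls and between 9.31 and 11.35 (median 10.02) after x-rays (log2 difference 0.03, adjusted p = 0.968). S100a9 and Cxcr2, the chemokine receptor that draws neutrophils into tissue, did not pass either (log2 difference 0.25, adjusted p = 0.645 and log2 difference -0.16, adjusted p = 0.758). In the monocyte list of 16 genes, Irf8, a transcription factor of monocytes, dendritic cells and B cells, was the only call (log2 fold-change -1.42 ± 0.29 SE, adjusted p = 0.00144), and Csf1r, the monocyte growth factor receptor, did not pass (log2 difference 0.08, adjusted p = 0.808). The medians of these 2 lists, 0.07 and -0.004, changed sign under other scalings.

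Of 12 tested genes of secondary and tertiary granules, which neutrophils fill late in the marrow, 3 were upregulated and none downregulated, beside 12.9% upregulated of all genes. Their median of 0.62 turned negative under spike-in centring and normexp. Ltf (lactoferrin) was at -2.02 to 0.70 in the controls (median -0.63) and at 2.22 to 5.93 after x-rays (median 3.69), with 1 control array above background, and the groups did not overlap (log2 fold-change 4.35 ± 0.61 SE, adjusted p = 9.15e-05). Ngp, another secondary granule protein, had a log2 fold-change of 4.62 and was also above background on 1 control array. Camp, the cathelicidin precursor, was above background on all arrays and lay between 2.62 and 3.48 (median 2.92) in the controls and between 4.85 and 8.15 (median 6.40) after x-rays (log2 fold-change 3.29 ± 0.48 SE, 9.77-fold, adjusted p = 1.28e-04). The other 9 genes did not pass. Elane (neutrophil elastase, log2 fold-change 1.5 ± 0.23 SE, adjusted p = 1.80e-04) was the 1 call among 3 tested genes of primary granules.

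Platelet, progenitor and eosinophil or basophil lists gave few calls, to be read beside the 12.9% upregulated and 16.9% downregulated of all genes. Thbs1, a platelet adhesion protein, was the 1 of 19 platelet genes that was upregulated (log2 fold-change 1.31 ± 0.25 SE, adjusted p = 8.81e-04), although its groups overlapped, and Pf4, a chemokine of platelet granules, did not pass (log2 difference 0.90, adjusted p = 0.0159). Called or not, 18 of the 19 platelet genes were higher after x-rays. Their median of 0.60 turned negative under spike-in centring and normexp. Of 9 tested genes of blood progenitors, Myb and Ly6a were downregulated (log2 fold-change -1.71 ± 0.35 SE, adjusted p = 0.00131 and log2 fold-change -1.55 ± 0.35 SE, adjusted p = 0.00243), the latter in 3 of the 12 fits with 1 array left out. Called or not, 5 of the 9 progenitor genes were higher and 4 lower after x-rays (median 0.002). In the eosinophil, basophil and mast cell list of 8 tested genes, the basophil protease Prss34 was upregulated (log2 fold-change 2.2 ± 0.38 SE, adjusted p = 4.31e-04). Il5ra, the eosinophil receptor for interleukin 5, was downregulated (log2 fold-change -2.87 ± 0.45 SE, adjusted p = 1.96e-04). Cd200r3, a basophil receptor, was at least 1.40-fold lower by a probe above background on no x-ray array (log2 fold-change -1.29 ± 0.27 SE, adjusted p = 0.00164). A dimmer Cd200r3 probe, above background on 1 x-ray array and no control array, gave 1.39. Transcripts of heart muscle and vessel wall could enter blood drawn from the heart. Of 14 listed genes of these tissues 8 were below background, among them Myh6, Actc1, Tnnt2, Tnni3 and Myl7. None of the 6 heart and vessel genes tested passed (median log2 fold-change 0.52), and how much tissue entered the blood was not tested. Kdr, a receptor of vessel lining cells, was among those 6 (log2 difference 0.90, adjusted p = 0.00819).

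Red-cell transcripts were higher after x-rays. Of 22 genes of the red-cell membrane and its skeleton 19 were upregulated and none downregulated (median log2 fold-change 2.63), and of 18 genes of heme synthesis and iron uptake 12 were upregulated and none downregulated (median 1.32). Rhd and Rhag, which form the Rh complex of the membrane, were the first of the former. Rhd was at 4.94 to 6.07 in the controls (median 5.57) and at 8.32 to 9.47 after x-rays (median 9.18) (log2 fold-change 3.41 ± 0.26 SE, 10.6-fold, adjusted p = 1.32e-06), and Rhag was between 1.89 and 2.92 (median 2.15) in the controls and between 4.8 and 6.10 (median 5.65) after x-rays (log2 fold-change 3.32 ± 0.26 SE, 9.98-fold, adjusted p = 1.32e-06). Both were higher in every x-ray mouse than in any control.

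Slc4a1, the anion exchanger band 3 and the main protein of the membrane, was at 10.35 to 11.22 in the controls (median 10.97) and at 12.97 to 13.82 after x-rays (median 13.68) (log2 fold-change 2.72 ± 0.21 SE, 6.57-fold, adjusted p = 1.25e-06). The groups were apart here too. The ankyrin Ank1 had a log2 fold-change of 3.10, and Icam4 and Ermap, which carry blood group antigens, had 3.29 and 3.18. For Ermap 2 other probes gave 2.31 and 0.18. Ahsp, which binds free alpha globin and belongs to no list, had one of the 8 largest rises among genes above background on all arrays. It was between 8.15 and 9.56 (median 8.86) in the controls and between 11.26 and 13.80 (median 13.14) after x-rays (log2 fold-change 3.99 ± 0.42 SE, 15.9-fold, adjusted p = 9.51e-06).

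In heme synthesis, Urod, the uroporphyrinogen decarboxylase, had the largest rise. It was at 7.68 to 8.53 in the controls (median 8.0) and at 10.45 to 11.73 after x-rays (median 11.42) (log2 fold-change 3.15 ± 0.28 SE, 8.87-fold, adjusted p = 3.24e-06). Cpox and Alad, of other steps of the pathway, had log2 fold-changes of 2.87 and 1.95, and a second probe for Alad gave 0.76. Alas2, the enzyme of the first and rate-limiting step in red cells, was the brightest of them and lay between 14.24 and 14.68 (median 14.36) in the controls and between 14.62 and 16.07 (median 15.24) after x-rays, where the groups overlapped and the test was not passed (log2 difference 0.85, adjusted p = 0.00683).

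Of 12 tested erythroid transcription factors and receptors 6 were upregulated and 2 downregulated (median 1.19). Klf1 and Gata1, which switch on globin and heme genes, had log2 fold-changes of 2.73 and 1.59, and Zfpm1, the partner of Gata1, one of 2.73, with a second probe at 0.99. E2f2 and Sox6 were also upregulated, while E2f4 and Ldb1 were downregulated. Reticulocytes clear their organelles by ubiquitin ligases and autophagy, and 11 of the 15 genes on that list were upregulated and none downregulated (median 1.47). Trim10, a ligase of late red-cell formation, was at 6.88 to 8.14 in the controls (median 7.42) and at 9.72 to 10.98 after x-rays (median 10.43) (log2 fold-change 2.93 ± 0.26 SE, 7.60-fold, adjusted p = 3.40e-06). The nuclear export receptor Xpo7 and the ligase Rnf123 had log2 fold-changes of 2.64 and 2.29, and a second probe for Xpo7 gave 0.15.

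Some of these calls depended on how background was removed. With normexp correction 1 of 19 red-cell membrane genes and none of 17 heme genes passed, while 10 of 15 B-cell receptor genes and 16 of 18 B-cell transcription factors and survival receptors still fell. None of 15 reticulocyte clearance genes and none of 10 erythroid transcription factors and receptors passed with normexp either. With the slide as a block, 15 red-cell membrane genes, 5 heme genes, 8 clearance genes and 5 erythroid factors were upregulated. Over all genes, normexp called 28 rises and 361 falls, and the slide block 824 rises and 444 falls. All counts under these 2 settings are to be read beside those totals. The medians of the red-cell membrane and heme lists were above 0 in all 7 scalings and background corrections tried. Taken relative to the median of all genes, they were at least 2.21 and 1.21 in each.

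**Figure D4:**
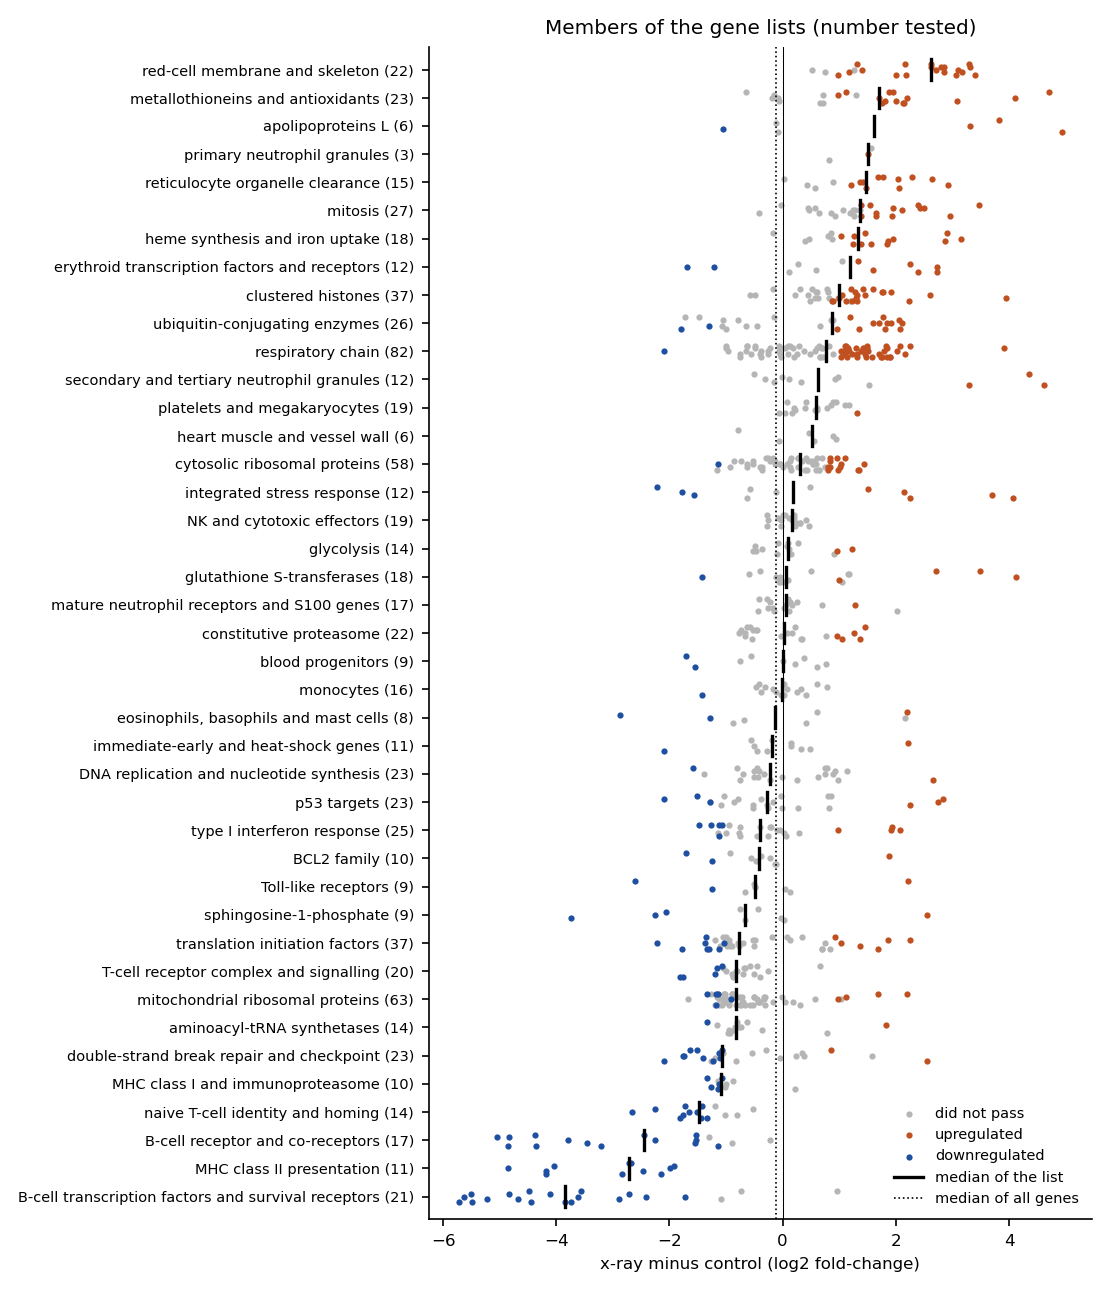
Log2 fold-change (x-ray minus control, horizontal) of the tested members of each gene list (vertical), 1 point per gene, coloured where differentially expressed, with a bar at the list median and a line at the median of all genes (-0.11). The MHC class II list and the 2 B-cell lists lie to the left with medians from -2.45 to -3.85, and the red-cell membrane list lies farthest to the right at 2.63.

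Genes of mitosis were upregulated in 13 of 27 tested cases and downregulated in none (median log2 fold-change 1.36). Ccnb2, a cyclin that drives entry into mitosis, was between 4.17 and 4.6 (median 4.50) in the controls and between 6.98 and 8.33 (median 8.14) after x-rays (log2 fold-change 3.47 ± 0.24 SE, 11.1-fold, adjusted p = 5.08e-07). Ccna2, the cyclin of S phase and G2, was at 4.61 to 5.18 in the controls (median 4.98) and at 7.37 to 8.21 after x-rays (median 7.89) (log2 fold-change 2.95 ± 0.19 SE, 7.75-fold, adjusted p = 2.78e-07). Ube2c, the enzyme that passes ubiquitin to mitotic cyclins for their destruction, was between 9.13 and 9.54 (median 9.47) in the controls and between 11.01 and 11.75 (median 11.60) after x-rays (log2 fold-change 2.10 ± 0.18 SE, 4.29-fold, adjusted p = 2.21e-06). No x-ray mouse overlapped a control in any of these 3 genes.

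Fzr1, an activator of the same destruction complex, had a log2 fold-change of 2.43, the topoisomerase Top2a one of 2.50, and Cdca3, a trigger of mitotic entry outside the list, one of 3.99. Cdca3 lay at 1.61 to 2.37 in the controls (median 2.12) and at 4.36 to 6.76 after x-rays (median 6.30). For Kif11 and Bub1 no control array was above background, and only 3 x-ray arrays and 1 x-ray array were. Their means over all x-ray arrays lay 1.22-fold and 1.61-fold above the background limit of the controls, which is not a strict lower bound. Of 23 tested genes of DNA replication, Rrm2, the small subunit of ribonucleotide reductase, was upregulated (log2 fold-change 2.65 ± 0.27 SE, adjusted p = 8.70e-06) by a probe that the array annotation places on another chromosome, and Cdt1, a licensing factor, downregulated (log2 fold-change -1.58 ± 0.30 SE, adjusted p = 9.02e-04), and the median of -0.22 turned positive after scaling on the 75th percentile, on common probes or by quantiles. Clustered histone genes were upregulated in 20 of 37 cases and downregulated in none, with a median of 1.00 that turned negative when centred on the spike-ins. Hist1h3g was at least 5.97-fold higher, with no control array and 6 x-ray arrays above background, and Hist2h2bb had a log2 fold-change of 2.61. Histone genes are near copies of each other, so a probe may read several of them. With normexp correction 1 of 16 mitosis genes and no histone gene passed, and with the slide as a block 9 mitosis and 8 histone genes did.

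Many late cell-cycle promoters hold several CCAAT boxes. At least 1 occurred in the 200 bases before the start of 19 of 24 mitosis genes, against 29.3% of all windows, and at least 2 in 9 of them, against 7.98%. The cell cycle homology letters TTTGAA occurred in 9 of 24, against 12.5%. Windows of Ccnb2 (chr9:70421555-70421754, minus strand), Ube2c (chr2:164769729-164769928, plus strand) and Top2a (chr11:99024190-99024389, minus strand), all of GRCm38.p6, are printed since these upregulated genes hold 3, 5 and 5 boxes, in capitals on either strand. Overlapping boxes count separately, so that CCAATTGG in Ube2c counts once on each strand.
Ccnb2: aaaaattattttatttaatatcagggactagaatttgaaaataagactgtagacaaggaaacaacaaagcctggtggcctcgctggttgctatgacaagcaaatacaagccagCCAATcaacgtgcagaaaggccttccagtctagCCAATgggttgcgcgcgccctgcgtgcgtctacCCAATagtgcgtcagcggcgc
Ube2c: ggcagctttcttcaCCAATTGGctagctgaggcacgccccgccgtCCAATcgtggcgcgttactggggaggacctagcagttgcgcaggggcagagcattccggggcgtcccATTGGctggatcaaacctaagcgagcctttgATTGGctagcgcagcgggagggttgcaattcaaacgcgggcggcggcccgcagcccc
Top2a: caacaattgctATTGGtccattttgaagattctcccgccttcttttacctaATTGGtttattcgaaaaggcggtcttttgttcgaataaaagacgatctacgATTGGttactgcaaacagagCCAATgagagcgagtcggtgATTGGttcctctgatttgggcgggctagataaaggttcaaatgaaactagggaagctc

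The metallothioneins, small proteins that bind zinc and copper and that heavy metals, glucocorticoids and oxidants induce, had 2 of the 8 largest rises among genes measured on all arrays. Mt2 was between 1.52 and 1.90 (median 1.62) in the controls and between 5.20 and 6.87 (median 6.75) after x-rays (log2 fold-change 4.71 ± 0.29 SE, 26.2-fold, adjusted p = 2.78e-07). Mt1 was at 1.85 to 4.53 in the controls (median 2.96) and at 5.58 to 7.51 after x-rays (median 7.33) (log2 fold-change 4.1 ± 0.44 SE, 17.2-fold, adjusted p = 1.22e-05), and a second, dimmer probe gave a log2 fold-change of 2.06. Every x-ray mouse was above every control for both. With the antioxidant enzymes, 14 of 23 tested genes were upregulated and none downregulated (median 1.70), among them the quinone reductase Nqo1 (log2 fold-change 3.09 ± 0.22 SE, adjusted p = 7.14e-07), catalase (Cat, log2 fold-change 2.2 ± 0.25 SE, adjusted p = 1.52e-05) and Prdx2, an abundant peroxiredoxin of red cells (1.75). Catalase, Prdx2, Gpx1 and Blvrb are also abundant in red cells. With normexp correction 2 of 24 genes of this list passed.

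Metal response elements, bound by the zinc sensor MTF1, have the core TGCACNC or TGCGCNC. In the 200-base windows, 6 of 19 genes of the metallothionein and antioxidant list held that core on either strand, against 18.2% of all windows, and 2 or more were found in 4% of all windows. Mt2 (chr8:94172418-94172617, plus strand, GRCm38.p6) held 2 and Mt1 (chr8:94178889-94179088, plus strand) held 1, and both windows are shown with the cores in capitals. Beyond these sets, the letters AGATAA, bound by GATA factors, occurred in 2 of 13 heme genes and 3 of 14 red-cell membrane genes against 7.8% of all windows. The octamer ATTTGCAT occurred in 1 of 12 B-cell receptor genes and 1 of 16 genes of B-cell transcription factors and survival receptors, against 1.38%.
Mt2: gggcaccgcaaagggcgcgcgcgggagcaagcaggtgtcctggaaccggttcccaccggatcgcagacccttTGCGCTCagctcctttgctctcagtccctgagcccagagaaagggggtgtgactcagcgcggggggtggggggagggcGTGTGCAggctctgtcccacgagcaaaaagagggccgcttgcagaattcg
Mt1: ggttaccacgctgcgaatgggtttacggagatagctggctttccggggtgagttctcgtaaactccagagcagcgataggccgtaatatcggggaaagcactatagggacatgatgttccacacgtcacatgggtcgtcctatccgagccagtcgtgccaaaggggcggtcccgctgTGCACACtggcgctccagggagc

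Other stress genes split. Asns, asparagine synthetase, a target of the amino acid response, was between 2.39 and 4.03 (median 2.93) in the controls and between 6.39 and 7.83 (median 7.24) after x-rays (log2 fold-change 4.07 ± 0.33 SE, 16.8-fold, adjusted p = 1.74e-06), and the transcription factor Atf5 had a log2 fold-change of 3.70. Eif2ak1, the kinase that slows translation when heme is short in red-cell precursors, was upregulated (2.25), while the kinases for amino acid shortage and for unfolded proteins, Eif2ak4 and Eif2ak3, were downregulated (-2.21 and -1.78). In all, 5 of 12 tested genes of the integrated stress response were upregulated and 3 downregulated, and none of the latter passed with the slide as a block. Of 11 tested immediate-early and heat-shock genes 1 passed in each direction. Hspa1a, an inducible heat-shock protein, was upregulated, with 4 x-ray arrays and no control array above background. Its mean over all x-ray arrays lay 2.14-fold above the background limit of the controls. Zfp36, which degrades cytokine transcripts, was downregulated (log2 fold-change -2.09 ± 0.29 SE, adjusted p = 8.63e-05, 2 x-ray arrays above background).

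Apol10a, of the apolipoprotein L family, had the largest rise of any gene measured on all arrays. It was at 3.28 to 4.30 in the controls (median 3.52) and at 7.60 to 9.45 after x-rays (median 8.64) (log2 fold-change 4.93 ± 0.30 SE, 30.6-fold, adjusted p = 2.70e-07). Its neighbours in the family, Apol11b and Apol10b, had log2 fold-changes of 3.83 and 3.31, and Apol7b one of -1.05, and the groups were apart in each of these 4 of 6 tested genes. Among glutathione S-transferases, which conjugate toxins, 4 of 18 were upregulated and 1 downregulated, beside 12.9% and 16.9% of all genes. Gstt1 was between 2.70 and 6.51 (median 3.84) in the controls and between 7.87 and 9.0 (median 8.36) after x-rays (log2 fold-change 4.12 ± 0.56 SE, 17.3-fold, adjusted p = 6.97e-05), a wide spread among controls, and Mgst3 and Gstm5 followed with 3.50 and 2.72.

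Of 23 tested p53 targets 3 were upregulated and 3 downregulated, near the 12.9% and 16.9% of all genes (median log2 fold-change -0.28, above 0 when scaled on the 75th percentile or on common probes). Cdkn1a, the inhibitor p21 that stops the cell cycle, was at 0.26 to 1.33 in the controls (median 0.68) and at 1.45 to 4.48 after x-rays (median 3.08) (log2 fold-change 2.25 ± 0.41 SE, 4.76-fold, adjusted p = 5.81e-04). Psrc1 had a log2 fold-change of 2.74 with 2 control arrays above background. Gdf15, a secreted stress factor, was upregulated, with 4 x-ray arrays and no control array above background. Its mean over all x-ray arrays lay 2.74-fold above the background limit of the controls, and its call was kept in 4 of the 12 fits with 1 array left out. Mdm2, the ligase that turns p53 over, did not pass (log2 difference 0.82, adjusted p = 0.00816), and Ddb2, which recognises damaged DNA, was downregulated (log2 fold-change -2.09 ± 0.28 SE, adjusted p = 5.85e-05).

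Genes of double-strand break repair and checkpoints were downregulated in 10 of 23 tested cases and upregulated in 2 (median -1.07). The kinases Atm and Atr, which start the response, had log2 fold-changes of -2.10 and -1.76, with Atm above background on 1 x-ray array. Xrcc5, Xrcc6, Prkdc, Lig4 and Dclre1c, which join broken ends and which lymphocytes need to rearrange their receptors, were all downregulated (-1.75, -1.07, -1.64, -1.51 and -1.13). Fancd2, of the Fanconi pathway active in dividing cells, was upregulated (log2 fold-change 2.54 ± 0.42 SE, adjusted p = 3.25e-04), with 1 control array above background. With the slide as a block 1 gene of this list was downregulated, and with normexp correction none. Of 10 tested genes of the BCL2 family 1 was upregulated and 2 downregulated, near the 12.9% and 16.9% of all genes (median -0.42). The survival protein Bcl2l1, which red-cell precursors require, was upregulated (log2 fold-change 1.88 ± 0.20 SE, adjusted p = 1.02e-05), and Mcl1 and Bmf were downregulated (log2 fold-change -1.26 ± 0.28 SE, adjusted p = 0.00211 and log2 fold-change -1.70 ± 0.33 SE, adjusted p = 8.84e-04). The Mcl1 call was kept in 4 of the 12 fits with 1 array left out.

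Of 25 tested interferon response genes 4 were upregulated and 5 downregulated, near the 12.9% and 16.9% of all genes (median -0.41, above 0 on the 75th percentile and on common probes). With the slide as a block 3 were upregulated and none downregulated, and with normexp correction none passed. Isg15, a ubiquitin-like protein, was between 10.76 and 11.56 (median 11.01) in the controls and between 12.38 and 13.67 (median 12.92) after x-rays (log2 fold-change 1.92 ± 0.25 SE, 3.79-fold, adjusted p = 5.05e-05), and Oas3 and Rsad2, an RNA sensor and an antiviral enzyme, had log2 fold-changes of 2.08 and 1.93. Stat2 and Irf9, which carry the interferon signal to the nucleus, were downregulated (-1.48 and -1.12). MHC class I and immunoproteasome genes were downregulated in 5 of 10 tested cases and upregulated in none (median -1.10), led by the peptide transporter genes Tap1 and Tap2 (-1.34 and -1.26). The calls of Psmb8 and Psmb9 were kept in 6 of the 12 fits with 1 array left out, and none of the list passed with the slide as a block or with normexp correction.

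Of 9 tested Toll-like receptor genes, Tlr1 was downregulated (log2 fold-change -2.61 ± 0.33 SE, adjusted p = 3.94e-05), as was the transport protein Unc93b1 (log2 fold-change -1.25 ± 0.27 SE, adjusted p = 0.00200, kept in 6 of the 12 fits), and Tlr7, a sensor of single-stranded RNA, was upregulated (log2 fold-change 2.22 ± 0.40 SE, adjusted p = 5.56e-04). A second Tlr7 probe gave a log2 fold-change of -0.28. In sphingosine-1-phosphate signalling, which steers lymphocyte traffic, 1 of 9 tested genes was upregulated and 3 were downregulated, beside 12.9% and 16.9% of all genes. The other 5 did not pass. The receptors S1pr1 and S1pr4 and the exporter Spns2 were downregulated (S1pr4 and Spns2 by log2 fold-changes of -2.06 and -3.74, Spns2 with 3 x-ray arrays above background), and the kinase Sphk1 was upregulated (log2 fold-change 2.56 ± 0.28 SE, adjusted p = 1.15e-05).

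Respiratory chain genes, which encode the mitochondrial oxidative machinery, were upregulated in 38 of 82 tested cases, and only Atp5sl was downregulated (log2 fold-change -2.09 ± 0.30 SE, adjusted p = 9.80e-05). The RefSeq symbol of Atp5sl is Dmac2, which does not name it as a subunit of the chain. Their median of 0.76 turned negative under spike-in centring and normexp. Cox6b2, an isoform of a cytochrome oxidase subunit known from testis, was at 6.24 to 7.05 in the controls (median 6.34) and at 9.92 to 10.75 after x-rays (median 10.46) (log2 fold-change 3.92 ± 0.20 SE, 15.1-fold, adjusted p = 1.49e-07). Cox7a2 and Ndufa1 had log2 fold-changes of 2.25 and 2.16. With the slide as a block 23 of the 82 genes were upregulated, and with normexp correction 1 of 87. Of 63 mitochondrial ribosomal proteins 4 were upregulated and 5 downregulated, below the 12.9% and 16.9% of all genes, and the median was -0.82. The falls numbered from 0 to 18 with 1 array left out, the most without x-ray replicate 1, and none was found with the slide as a block or with normexp correction.

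Cytosolic ribosomal proteins had 13 rises and 1 fall in 58 tested genes (median 0.31, below 0 with 4 of the other scalings), with Rps2, Rpl41 and Rplp0 at 1.45, 1.34 and 1.34 and Rps27 at -1.15. None of these calls was made with the slide as a block or with normexp correction. The probes used for Rplp0, Rps27, Rps19 and Gapdh are annotated to other chromosomes than the genes, so that they may also read related copies. Rps19, which is mutated in an inherited anaemia, did not pass (log2 difference 0.15, adjusted p = 0.533), and neither did Rps25 (log2 difference 0.65, adjusted p = 0.00645), whose brighter probe varied too little to be kept and differed by -0.71. The list of translation initiation factors, which also holds EIF2 kinases, had 6 rises and 8 falls in 37 tested genes. These are near the 12.9% and 16.9% of all genes (median -0.77). Its largest rise and fall, 2.25 and -2.21, were the kinases Eif2ak1 and Eif2ak4 described above, not initiation factors. The falls numbered from 5 to 13 with 1 array left out, the most without x-ray replicate 1, and with the slide as a block there were 4 rises and no fall, and with normexp correction no call. Eif5 was upregulated (1.86), and Eif3f varied too little between arrays to be tested. Ubiquitin-conjugating enzymes were upregulated in 12 of 26 tested cases and downregulated in 2 (median 0.87, below 0 on spike-ins and with normexp), with Ube2e3, Ube2h and Ube2j1 at 2.07, 2.06 and 1.92 beside Ube2c. A second probe for Ube2j1 gave -0.16. With normexp correction none of 26 ubiquitin-conjugating enzymes passed, and with the slide as a block 8 were upregulated. Of 22 constitutive proteasome genes 5 were upregulated and none downregulated, beside 12.9% upregulated of all genes. With the slide as a block 1 proteasome gene was upregulated, and with normexp correction none of 34 passed. Psmd4 rose by 1.46 and Psmd9 by 1.26, where a second Psmd9 probe gave -0.36. Aminoacyl-tRNA synthetases had 1 rise (Nars, 1.82) and 1 fall (Vars, -1.34) in 14 tested genes, and glycolysis had rises of Bpgm (1.22), which makes the red-cell regulator of oxygen release, and Gapdh (0.96, below 0 on spike-ins) in 14.

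Outside the lists, the largest falls among genes measured on all arrays included the sulfotransferase gene Chst3. Its probe lies on chr10:59644506-59644565 of the mm9 build given in the array annotation, and its level was between 6.23 and 7.35 (median 6.78) in the controls and between 0.72 and 2.79 (median 1.27) after x-rays (log2 fold-change -5.34 ± 0.32 SE, 40.4-fold, adjusted p = 2.70e-07). Il4i1, an enzyme that breaks down aromatic amino acids and that interleukin 4 induces in B cells, lay at 6.78 to 7.59 in the controls (median 7.35) and at 1.62 to 3.34 after x-rays (median 2.50) (log2 fold-change -4.78 ± 0.29 SE, 27.4-fold, adjusted p = 2.70e-07). In both, every x-ray mouse was below every control. A transcript given only by an Ensembl number, ENSMUST00000192250 (mm9 chr12:114654277-114654336), had a log2 fold-change of -5.45, and another, ENSMUST00000034133 (mm9 chr8:87848346-87848405), one of 3.92. Of other genes named by the study for these arrays, Crip2 was upregulated (log2 fold-change 2.91 ± 0.22 SE, adjusted p = 9.19e-07), while Add3 and Myc did not pass (log2 difference -1.23, adjusted p = 0.00745 and log2 difference -0.83, adjusted p = 0.0733).

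Some genes were measured in 1 group alone. Of 31093 genes on the array, 196 were well above background on all 6 control arrays and on no x-ray array, and 26 on all x-ray arrays and no control array. Fcrl1 and H2-Eb2 were among the former and Hist1h3g among the latter. As the x-ray arrays had fewer probes above background in general, these counts share that difference. With the scanner's weaker requirement, a signal positive and significant against local background, they were 73 and 10.

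The x-ray mice were then set against mice exposed to 3 Gy with 5% neutrons, to ask what a small neutron component adds. By limma no gene was differentially expressed, with 3508 genes at an unadjusted p under 0.05, and 708 genes passed when all 36 arrays were fitted in 1 model. Of the 6 x-ray arrays, 5 were scanned in a session that held no mixed field array. Only x-ray replicate 6 and mixed field replicate 5 shared a session. Session and exposure cannot be told apart in the other arrays of this comparison.

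Against 0.75 Gy of neutrons alone, 1943 genes differed (12.9% of those tested), 962 higher and 981 lower after x-rays. No scan session held both groups, and the dose differed too (3 Gy against 0.75 Gy). Session, dose and type of radiation cannot be told apart in these values. The B-cell lists were lower after x-rays in 17 of 21 genes (B-cell transcription factors and survival receptors, median log2 difference -2.70) and in 8 of 17 genes (receptor and co-receptors, median -1.48), with none higher. Cd79b averaged 5.71 after x-rays and 9.01 after neutrons alone, and Ebf1 -0.61 and 3.58. Mt2 averaged 6.35 and 3.85 and Ccnb2 7.94 and 5.89, both higher after x-rays. Apol10a averaged 8.6 and 5.80. Of respiratory chain genes 24 were higher and 1 lower after x-rays, while natural killer genes gave no call and Isg15, at 12.97 and 12.63, did not pass.

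**Figure D5:**
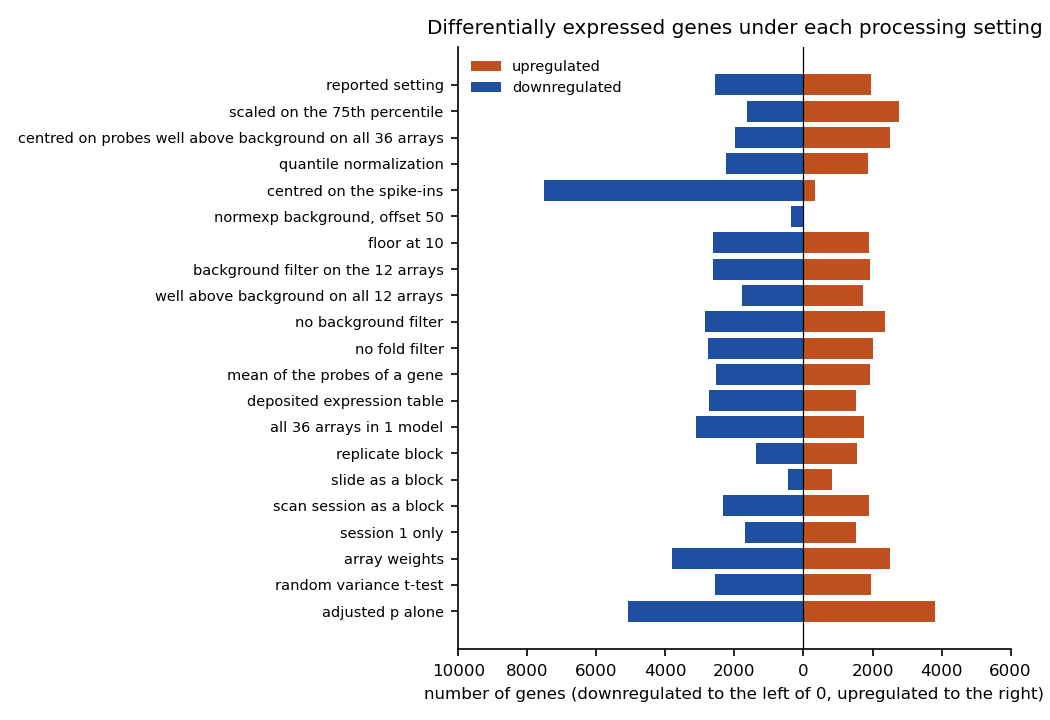
Number of genes upregulated and downregulated after x-rays (horizontal, genes) under each scaling, filter or model tried (vertical). The totals run from 389 with normexp correction to 8878 with the adjusted p alone, beside 4500 with the settings used here.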

How the data were processed

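Blood RNA of 6 control and 6 x-ray exposed mice was read on 1-colour Agilent mouse arrays, 1 array per mouse. Per the file headers and the submitters' processing notes, the deposited scanner files hold the processed green intensity of each spot, which Agilent Feature Extraction 12.0.2 had corrected for local background. The authors also deposited a table of log2 expression values, normalized by them, which served as an alternative. The authors filtered spots by background and fold, centred arrays on the median and called genes by a random variance test at p under 0.001 and a false discovery rate under 5%. The same steps were followed here, with limma as the test.

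Spots of a probe were averaged (44397 spots, 39429 probes), non-uniform spots were left out, and intensities were log2 transformed and centred on the array median. Probes were kept when above background on over 75% of the 36 arrays (21484) and when at least 20% of them differed from the probe's median by at least 1.5-fold (17963), and the brightest probe stood for a gene (15085 genes, of which 11881 matched RefSeq symbols). Groups were compared by limma 3.58.1 in R 4.3.3 with Benjamini-Hochberg adjustment. Adjusted p-values are those of limma throughout. A gene not above background on any array of a group is given as at least a fold against the lowest signal well above background. Where the brighter group was itself above background on only some arrays, its mean still covers all of them. Such a fold is no strict lower bound. The fit was tested on simulated data of these 15085 genes, where it called 30% of the genes given a log2 change of 1, 56% at 1.5, 74% at 2 and 96% at 3, with 7 false calls. Noise was drawn independently for each gene, without slide, session or brightness effects. The 7 false calls are therefore no error rate for the measured arrays.

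Genes named were the 8 largest rises and 8 largest falls among genes above background on all 12 arrays, up to 4 called members of each of 41 lists with the largest change, and the genes that the study names. Members that define a cell type or pathway but did not pass were also named, and other members given for their role were chosen after their values were seen. The lists and members were chosen with earlier results of these data known. Alternatives changed the scaling, background correction, filters, probe rule, model, blocks and arrays left out. Figures were drawn with matplotlib 3.10.9. The authors' own lists of changed genes were not used, and some members of the lists are not reported here by name.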

Additional observations from a re-analysis of the deposited data

Results flagged for a closer look

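Within each group of 6 mice, the highest or lowest value was compared with the others by Dixon's test at 95%, over 367 groups of values, and 22 stood apart. Chance alone sets some values apart at that level, and no cause was tested.

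In the x-ray mice, replicate 1 held several of them. It had the highest Add3 (7.03), Chst3 (2.79) and Ebf1 (2.25), and the lowest Apol10b (8.14), Bcl2l1 (12.8) and Eif5 (11.0). Replicate 5, the mouse with the dimmest array, had the lowest Cdca3 (4.36) and Mt1 (5.58) and the highest Tlr7 (9.77). It also had the lowest mean level over the constitutive proteasome genes (5.51), the respiratory chain (7.10), sphingosine-1-phosphate signalling (2.33) and the translation initiation factors (3.80). Replicate 4 had the highest mean level over interferon response genes (5.15).

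In the controls, replicate 1 had the highest Alad (4.57) and the lowest Prss34 (-0.81) and Zfp36 (1.31). Replicate 3 had the highest Cox6b2 (7.05) and the lowest Tlr7 (5.04) and Zfpm1 (6.56). Replicate 4 had the highest Mt2 (1.90) and Rsad2 (11.6). Between exposures, 1943 genes differed between x-rays and neutrons alone, a comparison whose groups share no scan session and differ in dose.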

How the results depend on the processing

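The number of differentially expressed genes, 4500, was most changed by background correction and by blocks. It was 389 with normexp, 1268 with the slide as a block, 7838 when centred on the spike-ins and 8878 with the adjusted p alone, and with 1 array left out it ran from 3372 to 5567. Of the 389 genes, 384 were among the 4500, and none had the opposite direction. The share of downregulated genes, 56.7%, was 37.4% on the 75th percentile, 44.3% on probes above background on all 36 arrays, 54.4% after quantile normalization, 95.8% on the spike-ins, 92.8% with normexp and 64.4% in the deposited table. It was 50.8% for genes above background on all 12 arrays, 54.7% without the background filter, 64.0% in a model of all 36 arrays, 35.0% with the slide and 55.1% with the scan session as a block, 52.8% in the larger session alone and 60.4% with array weights, and from 50.7% to 61.9% with 1 array left out. Over all genes, log2 fold-changes had a median of 0.38 on common probes, 0.03 after quantile normalization, -0.78 with normexp and -0.18 in the deposited table.

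Mice were not treated as paired by replicate number. Of 6 same-numbered pairs 3 had deviations correlated above 0.1 (range -0.415 to 0.563, mean 0.075 against -0.014 for other pairs). With so few pairs and so wide a range, these values do not settle whether the numbers pair the mice. With the replicate number as a block 2906 genes passed, 46.9% of them downregulated.

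Direction turned for Rps19 (-0.32 by quantiles, -0.85 on spike-ins, -0.74 with normexp, -0.38 in the deposited table), Gapdh (-0.040 on spike-ins) and Rps25 (-1.71 on spike-ins, -1.57 with normexp, and -0.71 with the background filter on the 12 arrays or without the fold filter, which both choose its other probe). Genes measured in 1 group alone numbered 73 and 10 with the scanner's other flag, and 788 and 116 when 5 arrays against at most 1 sufficed. Against 5% neutrons 708 genes differed in the model of all 36 arrays. Of the 139 genes named, 79 lost their call with normexp, 45 with the slide and 27 on the spike-ins. The cause of the other changes was not tested.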
